A study of Mus musculus with 8 samples.

Results

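The tumour suppressor p53 pathway was examined in mouse hippocampus through 10 genes, read here as signs of toxicity after viral gene delivery: Trp53 itself, its inhibitor Mdm2, the growth arrest and stress genes Cdkn1a, Ccng1, Sesn1 and Phlda3, and the cell death genes Bax, Bbc3, Pmaip1 and Eda2r. They were taken from a list of gene names, drawn up with earlier results of these data known, and are 10 of the 40659 genes counted. All 10 were among the 17252 genes that passed the filter on low counts. PolyA-RNA was sequenced from whole hippocampi of 8 male C57BL/6JRj mice, 4 injected with the recombinant adeno-associated virus (rAAV) hp708 and 4 with hpCTL. Both viruses express EGFP from the human synapsin promoter, which is active in neurons, and carry a hairpin in the 3' untranslated region (3'UTR) of EGFP. In hp708 the hairpin gives rise to miR-708-5p, and in hpCTL it is a control hairpin. Every mouse therefore had surgery, virus and EGFP, and with no uninjected mice among these 8 libraries, the effect of the virus itself could not be measured. The virus was delivered to the dorsal and ventral hippocampus at 7 to 8 weeks of age, the tissue was taken 4 weeks later, and the labels give an age of 12 to 13 weeks.

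p53 is a transcription factor that is kept at low levels in unstressed cells, because Mdm2 marks it for degradation. DNA damage, oncogene activity and other forms of stress release it, and it then binds paired copies of a short palindromic motif near its target genes. Some targets halt the cell cycle or limit damage, others feed the mitochondrial death pathway, in which Bax and its relatives permeabilize the outer mitochondrial membrane and caspases are activated. Mdm2 is itself a target, so the pathway carries its own brake. In neurons, which no longer divide, p53 is known above all for its part in cell death after injury, and AAV genomes with their hairpin ends have been linked to DNA damage signalling.

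The libraries held between 22606824 and 28462428 counts. One mouse, animal 1602 (hp708 replicate 1), has conflicting labels: GEO places it in hp708, while a source data table of the study lists it as hpCTL. It was kept as hp708, and values without it are given for the 10 genes, Nnat and the pathway genes named. The precursor gene Mir708 had 0 counts in all 8 libraries, so the overexpression was not visible in this polyA-RNA. Nnat, the target that the study follows, had 302.3 ± 40.1 CPM (counts scaled to library size, mean ± SD, n = 4) in hpCTL and 238.8 ± 69.6 CPM in hp708, with a log2 fold change of -0.21 (FDR 0.735, edgeR's quasi-likelihood test). Without animal 1602, the hp708 mouse with the highest Nnat, it was -0.58 (FDR 0.0461), and with that animal as hpCTL -0.47 (FDR 0.146, both by the same test). Markers of neurons, astrocytes, oligodendrocytes, microglia, endothelium and choroid plexus were all detected in every library. In such bulk RNA, fewer cells of a type and less RNA per cell cannot be told apart.

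The promoters of the 10 genes were searched for the consensus p53 response element, which is 20 bases long without a spacer. It is made of 2 arms of 10 bases. A match had to keep the C and G at the core of both arms and could differ from the consensus at no more than 2 other bases. The consensus is its own reverse complement, so both strands were covered at once. Within 2500 bases on either side of the annotated gene start, 5 of the 10 genes held a match, namely Cdkn1a, Ccng1, Bax, Eda2r and Pmaip1, against 793 of 14977 windows (5.29%) of the tested protein-coding genes. With at most 1 mismatch, 2 of the 10 genes did so, Cdkn1a and Ccng1, against 119 windows (0.795%). The matches of the first 4 genes are shown in gene direction, as examples of how closely these promoters hold the consensus, and capitals mark the core C and G of each arm. They lie in GRCm39 at chr17:29309902-29309921 on the plus strand for Cdkn1a (1 mismatch), at chr11:40646289-40646308 and chr11:40645763-40645782 on the minus strand for Ccng1 (1 mismatch each), at chr7:45115998-45116017 on the minus strand for Bax (2 mismatches) and at chrX:96420140-96420159 on the minus strand for Eda2r (2 mismatches).
Cdkn1a: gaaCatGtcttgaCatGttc
Ccng1, upstream: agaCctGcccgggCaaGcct
Ccng1, downstream: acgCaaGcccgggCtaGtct
Bax: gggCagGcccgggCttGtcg
Eda2r: gggCaaGtccgggCctGtgt
The Cdkn1a match began 34 bases before the annotated start and the upstream Ccng1 match 160 bases before it. The other Ccng1 match, the Bax match and the Eda2r match began 366, 308 and 688 bases after the start. These are matches of letters only, and binding was not measured.

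A second search asked which of the 10 messages carry a seed match to the overexpressed microRNA. In the RefSeq table the mature miR-708-5p is 23 bases long, and the seed, bases 2 to 8, is in capitals. The longest annotated 3'UTR of each gene was searched on the transcript strand for the letters AGCTCCT or GCTCCTA, which together cover the 8mer, 7mer-m8 and 7mer-A1 sites. Only Sesn1 of the 10 genes had a site. It was a 7mer-m8 site that began 1118 bases after the stop codon, at chr10:41784225-41784231 of GRCm39 on the plus strand, shown in capitals with its flanks.
miR-708-5p: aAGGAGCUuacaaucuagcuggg
Sesn1 3'UTR: ggttatacAGCTCCTtaaaga
Among all tested protein-coding genes with a 3'UTR, 3927 of 14808 (26.5%) held such a site, so the 10 genes held fewer (10%) than that share, at a number where 1 gene more or less moves the share widely.

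Compared per length, as the mean over all 8 mice of CPM divided by the exon length in kilobases (RPKM), the cell cycle regulator Ccng1 (19.5) and the death effector Bax (18.9) had the highest levels, and their ranges over the mice overlapped. Sesn1, a sensor of oxidative stress and amino acids, followed with 12.2. Mdm2 (7.47), Phlda3 (6.08), an inhibitor of Akt signalling, and Trp53 (4.21) formed the middle, where each overlapped its neighbour in the order. The level of Cdkn1a, which encodes the cyclin-dependent kinase inhibitor p21, was low (1.84) and overlapped that of Bbc3 (1.15). Bbc3 and Pmaip1 (0.835), which encode the BH3-only death activators Puma and Noxa, overlapped as well. The receptor gene Eda2r was lowest (0.135), with 15 to 38 counts per library, and its range lay below that of all the others.

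None of the 10 genes was called between hp708 and hpCTL mice at a Benjamini-Hochberg FDR below 0.05 (lowest FDR 0.478 for Bax). The fit was edgeR's quasi-likelihood model, and it included 3 surrogate variables, which stand for unknown sources of variation. In all tested genes, 1 of 17252 (0.0058%) was called. This background moved with the test, while the count among the 10 genes was 0 in each case: 127 genes were called by edgeR's likelihood ratio test, 96 by DESeq2 (both with 3 surrogate variables), 56 without animal 1602 and 29 with it as hpCTL. The methods of the study name the likelihood ratio test and a figure legend the quasi-likelihood model. At an unadjusted p below 0.05 only Bax passed, 1 of 10, with 7.7% of all tested genes passing (4.87% lower and 2.82% higher in hp708), so the share among the 10 genes was near that of the background. Without animal 1602 only Cdkn1a passed, with 12.2% of all tested genes passing, and with it as hpCTL again only Cdkn1a, with 11.9%. The CPM of hp708 and hpCTL mice overlapped for each of the 10 genes, where 1.51% of all tested genes did not overlap. The median log2 fold change of the 10 genes was -0.08, beside -0.01 for all tested genes. Of the 10 estimates, 8 were below 0 and 2 above, where 46.8% of all tested genes were above 0. The plain mean CPM was higher in hp708 for 6 of the 10, beside 47% of all tested genes. The directions depended on the surrogate variables and on animal 1602. Without surrogate variables 4 of the 10 estimates were below 0 (median 0.03). With 3 surrogate variables, 3 were below 0 without animal 1602 (median 0.09) and 2 with it as hpCTL (median 0.05). The p-values rest on the spread between animals that was left after the surrogate variables, with 4 animals per group. These variables were estimated from the same 8 libraries. For Bax the SE was 0.053 with them and 0.113 without them.

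**Figure D1:**
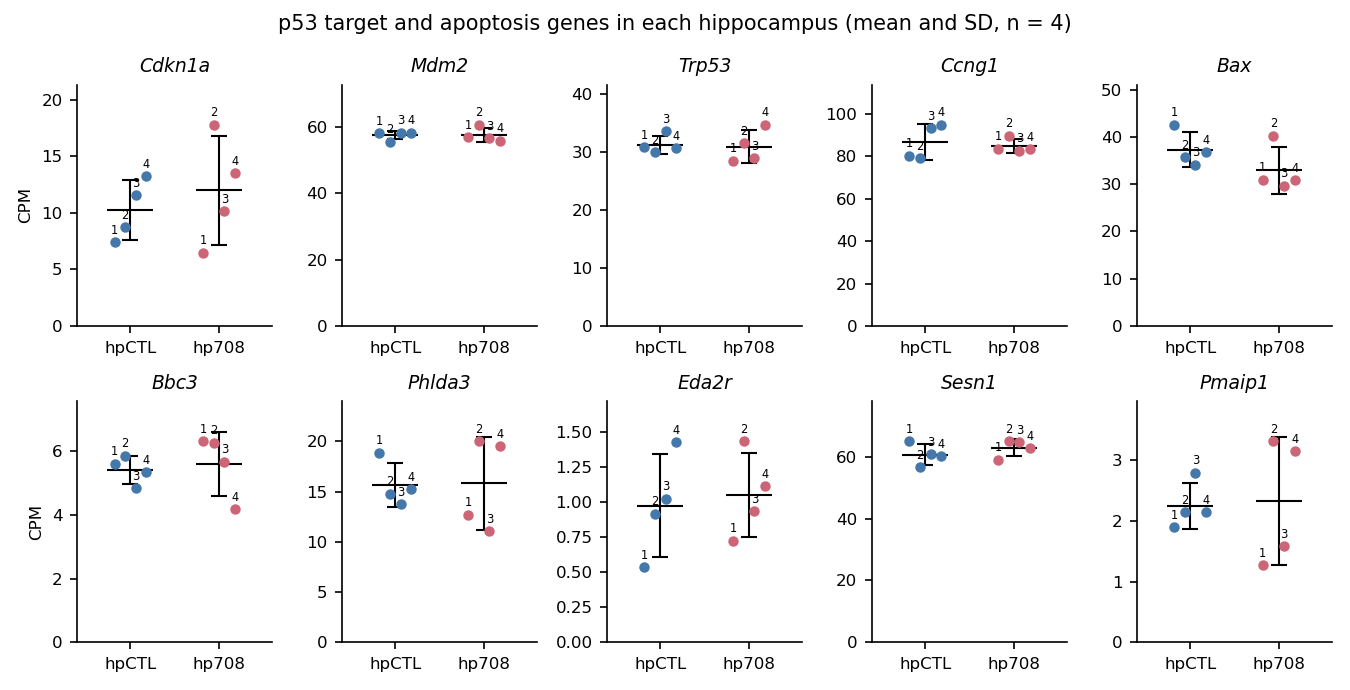
CPM of the 10 genes in each of the 8 mice, one panel per gene with a linear axis from 0, hpCTL on the left and hp708 on the right. Points are mice with their replicate number, and the lines are the group mean with SD (n = 4). The groups overlap in every panel, and for Cdkn1a, Trp53, Bbc3, Phlda3 and Pmaip1 the hp708 points reach above and below all hpCTL points.

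Trp53 and its inhibitor were among the steadiest of the 10. Trp53 had 30.8, 30.0, 33.5 and 30.7 CPM in hpCTL replicates 1 to 4 and 28.45, 31.4, 28.9 and 34.7 CPM in hp708 replicates 1 to 4. The lowest and the highest mouse were both in hp708, and the hpCTL values lay between them. The log2 fold change was -0.06 (SE 0.07, 95% interval -0.22 to 0.10, FDR 0.875 by edgeR's quasi-likelihood test), and without animal 1602 it was 0.055 (FDR 0.819). An exon stretch of 263 bases, 3.56% of the Trp53 exons, is shared with Wrap53 on the opposite strand. The strand setting of the counting is not given in the sources used here, so reads from this stretch cannot be assigned with certainty.

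Mdm2 had 58.1, 55.6, 58.3 and 58.3 CPM in hpCTL and 57.0, 60.7, 56.6 and 55.9 CPM in hp708. All mice lay within 1.09-fold of each other, and the groups were interleaved. The coefficient of variation (CV) over the 8 mice was 2.87%, close to the 2.63% that counting alone gives, and the median CV of all tested genes was 12.9%. The log2 fold change was -0.01 (SE 0.05, FDR 0.976 by edgeR's quasi-likelihood test), and the 95% interval in fold terms ran from 0.92 to 1.07. Without animal 1602 it was 0.019 (FDR 0.936).

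Among the growth arrest and stress genes, Cdkn1a varied most. The hpCTL mice had 7.43, 8.75, 11.5 and 13.2 CPM and the hp708 mice 6.49, 17.8, 10.1 and 13.5 CPM. The lowest and the highest of all 8 mice were both in hp708, 2.74-fold apart, and the CV of 33.4% was well above the 6.04% from counting and the highest among the 10 genes. The group means were 10.2 ± 2.63 and 12.0 ± 4.81 CPM (SD, n = 4), a ratio of 1.17. With the surrogate variables the log2 fold change was -0.11 (SE 0.18, 95% interval -0.52 to 0.30, FDR 0.919 by edgeR's quasi-likelihood test), while without them it was 0.23 (FDR 0.999). The sign for Cdkn1a also rested on animal 1602, the mouse with conflicting labels and the lowest value: without it the log2 fold change was 0.44 (p 0.0126, FDR 0.24), and with it counted as hpCTL it was 0.49 (p 0.00792, FDR 0.258, both by edgeR's quasi-likelihood test). Without both animal 1602 and the surrogate variables the estimate was again 0.44, with an SE of 0.24 and a p of 0.107 by the same test. In none of these cases was Cdkn1a called.

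Ccng1, encoding cyclin G1, had 80.3, 79.1, 93.4 and 95.0 CPM in hpCTL and 83.7, 89.9, 82.7 and 83.5 CPM in hp708. The hpCTL mice held both the lowest and the highest values, and all hp708 mice lay between them. The log2 fold change was -0.06 (SE 0.07, FDR 0.883 by edgeR's quasi-likelihood test), and without animal 1602 it was -0.018 (FDR 0.955). Sesn1, the gene with the miR-708-5p seed match, had 64.9, 56.5, 60.8 and 60.0 CPM in hpCTL and 59.0, 65.0, 64.8 and 62.6 CPM in hp708. The lowest mouse was in hpCTL and the highest in hp708, with the rest interleaved, and the estimate of 0.05 (SE 0.05, 95% interval -0.07 to 0.17, FDR 0.865 by edgeR's quasi-likelihood test) lay above 0. In fold terms the interval ran from 0.951 to 1.13. Without animal 1602 the Sesn1 estimate was 0.12 (FDR 0.48). Sesn1 shares 548 exon bases (10.9%) with Cep57l1 on the opposite strand.

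Phlda3 had 18.9, 14.8, 13.7 and 15.2 CPM in hpCTL and 12.7, 20, 11.0 and 19.5 CPM in hp708. The hp708 mice split into a high pair, replicates 2 and 4, and a low pair, replicates 1 and 3, above and below every hpCTL mouse. The SD was 4.62 CPM in hp708 and 2.22 CPM in hpCTL around almost equal means of 15.8 and 15.6 CPM. The log2 fold change was -0.10 (SE 0.17, FDR 0.921 by edgeR's quasi-likelihood test), and without animal 1602 it was 0.25 (FDR 0.552).

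**Figure D2:**
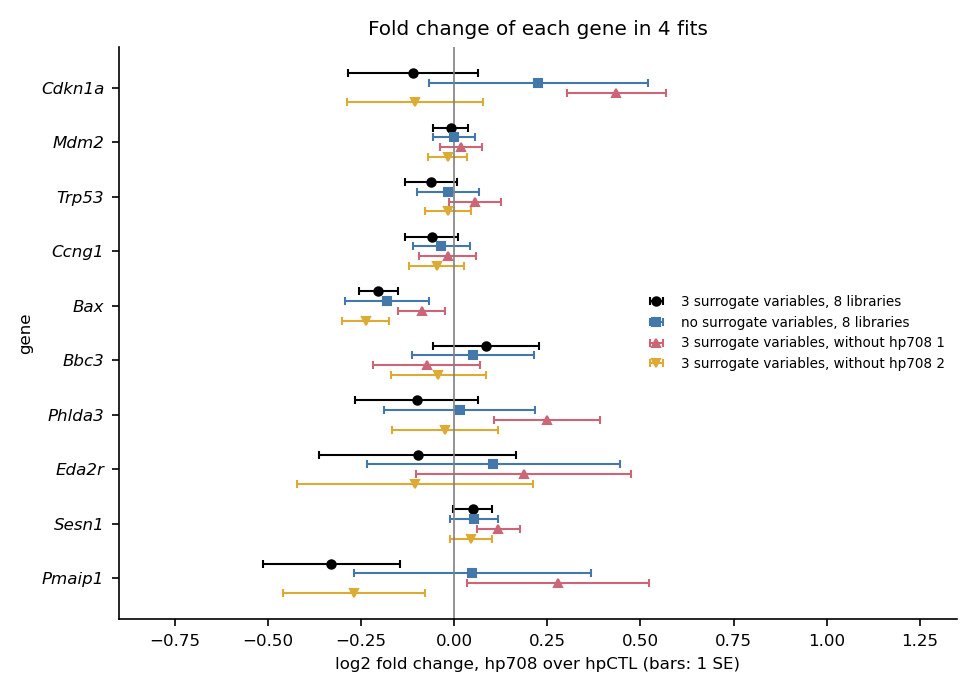
Log2 fold change of hp708 over hpCTL for the 10 genes, with bars of 1 SE, in 4 fits: all 8 mice with 3 surrogate variables, all 8 without surrogate variables, and with 3 surrogate variables but without hp708 replicate 1 (animal 1602) or without hp708 replicate 2. Bax lies below 0 and Sesn1 above 0 in all 4 fits, while the Cdkn1a estimate moves from -0.11 to 0.44 when animal 1602 is left out.

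The death genes began with Bax, the gene with the lowest p. It had 42.6, 35.7, 34.1 and 36.8 CPM in hpCTL and 31.0, 40.3, 29.7 and 30.8 CPM in hp708. The hp708 replicates 1, 3 and 4 lay below every hpCTL mouse, and hp708 replicate 2 lay above all hpCTL mice but replicate 1. The means were 37.3 ± 3.69 CPM in hpCTL and 32.9 ± 4.94 CPM in hp708. The log2 fold change was -0.20 (SE 0.05, 95% interval -0.33 to -0.08, or 0.797 to 0.947-fold, p 0.00598), which did not pass the adjustment over all genes (FDR 0.478, edgeR's quasi-likelihood test). The estimate was below 0 in all alternatives and with every single mouse left out, but its size rested in part on animal 1602. It was -0.09 without that animal (p 0.203) and -0.10 with it as hpCTL (p 0.166), while without surrogate variables it was -0.18 (p 0.145, all by edgeR's quasi-likelihood test). Without hpCTL replicate 1, the highest mouse for Bax, it was -0.16 with 3 surrogate variables (p 0.0204) and -0.10 without them (p 0.379, same test). Without hp708 replicate 2 the groups did not overlap for Bax, as for 6.17% of all tested genes then. Bax shares 192 exon bases (10.3%) with Gm45808 on the same strand, a gene model that had a log2 fold change of -0.19 (p 0.0838).

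Bbc3 had 5.61, 5.86, 4.84 and 5.33 CPM in hpCTL and 6.31, 6.26, 5.67 and 4.17 CPM in hp708. The lowest and the highest mouse were again both in hp708, and the log2 fold change was 0.09 (SE 0.14, FDR 0.922 by edgeR's quasi-likelihood test), and without animal 1602 it was -0.074 (FDR 0.891). Pmaip1 had 1.89, 2.14, 2.79 and 2.14 CPM in hpCTL and 1.27, 3.30, 1.58 and 3.14 CPM in hp708. As for Phlda3, hp708 replicates 2 and 4 were the highest of all 8 mice and replicates 1 and 3 the lowest. The Pmaip1 log2 fold change was -0.33 (SE 0.18, 95% interval -0.76 to 0.10, FDR 0.729 by edgeR's quasi-likelihood test), although the mean CPM of hp708 (2.32) was above that of hpCTL (2.24), and without animal 1602 it was 0.28 (FDR 0.721). With 35 to 76 counts per library, counting alone gives a CV of 13.3%, and the measured CV was 32.1%.

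Eda2r had 0.536, 0.918, 1.03 and 1.43 CPM in hpCTL and 0.725, 1.44, 0.938 and 1.12 CPM in hp708. The groups covered nearly the same range, and the measured CV was 30.8%, where counting alone gives 20%. The log2 fold change was -0.10 (SE 0.26, 95% interval -0.72 to 0.52, FDR 0.951 by edgeR's quasi-likelihood test), an interval from 0.608 to 1.44-fold and the widest of the 10. Without animal 1602 it was 0.19 (FDR 0.858).

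The ranks of the mice were compared across the 10 genes. In hp708 replicate 2, 6 of the 10 genes were at their highest (Cdkn1a, Mdm2, Phlda3, Eda2r, Sesn1 and Pmaip1), and all 10 were among the 3 highest mice. Over all tested genes this mouse was highest for 15.5% and among the 3 highest for 41.3%. The mouse most often highest over all tested genes was hpCTL replicate 1 (25.5%), which was highest for 1 of the 10, Bax. Animal 1602 had a median rank of 7 among 8 mice and a mean rank of 6.1, with the lowest value for Cdkn1a, Trp53 and Pmaip1 and the highest for Bbc3. Other mice ranked nearly as low: hpCTL replicate 2 was also lowest for 3 of the 10 genes, with a mean rank of 5.8, and hp708 replicate 3 had a mean rank of 5.9. The summed CPM of the 10 genes ran from 289.3 to 318.1 in hpCTL and from 286.6 to 336 in hp708.

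**Figure D3:**
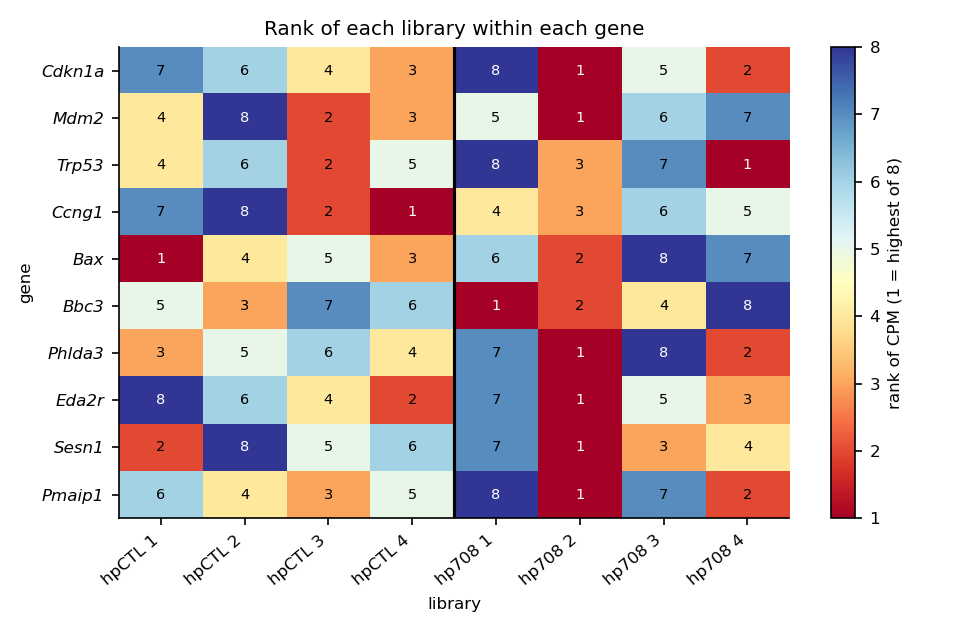
Rank of each of the 8 mice (columns, with hpCTL left and hp708 right of the black line) for each of the 10 genes (rows) by CPM, from 1 (highest, red) to 8 (lowest, blue), with the rank printed in each cell. The column of hp708 2 holds rank 1 for 6 genes and rank 3 at the lowest, and the column of hp708 1 (animal 1602) has a median rank of 7.

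In hp708 replicate 2, all 6 oligodendrocyte markers and all 6 choroid plexus markers were also at their highest. The summed CPM of the oligodendrocyte markers was 3802 to 5110 in hpCTL and 3847 to 7149 in hp708, and that of the choroid plexus markers was 52.4 to 2058 in hpCTL and 105.3 to 4391 in hp708, with hp708 replicate 2 at the top of both. The same mouse had the lowest summed neuron markers (5289 CPM, with 5591 to 6225 CPM in the other 7 mice) and the lowest summed subiculum markers (118.3 CPM, with 129.1 to 215.5 CPM in the others). No marker of these lists was at 0 in any library. The part of these tissues in the levels of the 10 genes was not tested.

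Cdkn1a was also set beside the immune markers. For 8 interferon response genes together, the hpCTL mice had 175.7, 378.1, 414 and 463.2 CPM and the hp708 mice 164.3, 404.8, 196.2 and 395.6 CPM. The pair of mice with the lowest Cdkn1a, animal 1602 and hpCTL replicate 1, had the lowest interferon sums too. For 6 microglia markers together, these sums were 498.7, 553.4, 642.7 and 613.5 CPM in hpCTL mice and 442.4, 612, 471.3 and 643.1 CPM in hp708 mice. In the fit with 3 surrogate variables, 8 of 8 interferon genes, 5 of 8 lymphocyte markers and 4 of 6 microglia markers were lower in hp708 at an unadjusted p below 0.05, as were 4.87% of all tested genes, and none of these immune genes passed an FDR of 0.05. These counts rested on the surrogate variables and on animal 1602. Without surrogate variables they were 0, 0 and 0, beside 0.951% of all tested genes, with median log2 fold changes of -0.24, -0.22 and -0.09. Without animal 1602 they were 3, 0 and 0, beside 6.72% of all tested genes, with medians of -0.10, -0.11 and 0.04. With 3 surrogate variables and all 8 mice the medians were -0.69, -0.66 and -0.24. The part of these immune genes in the Cdkn1a and Bax values was not tested.

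**Figure D4:**
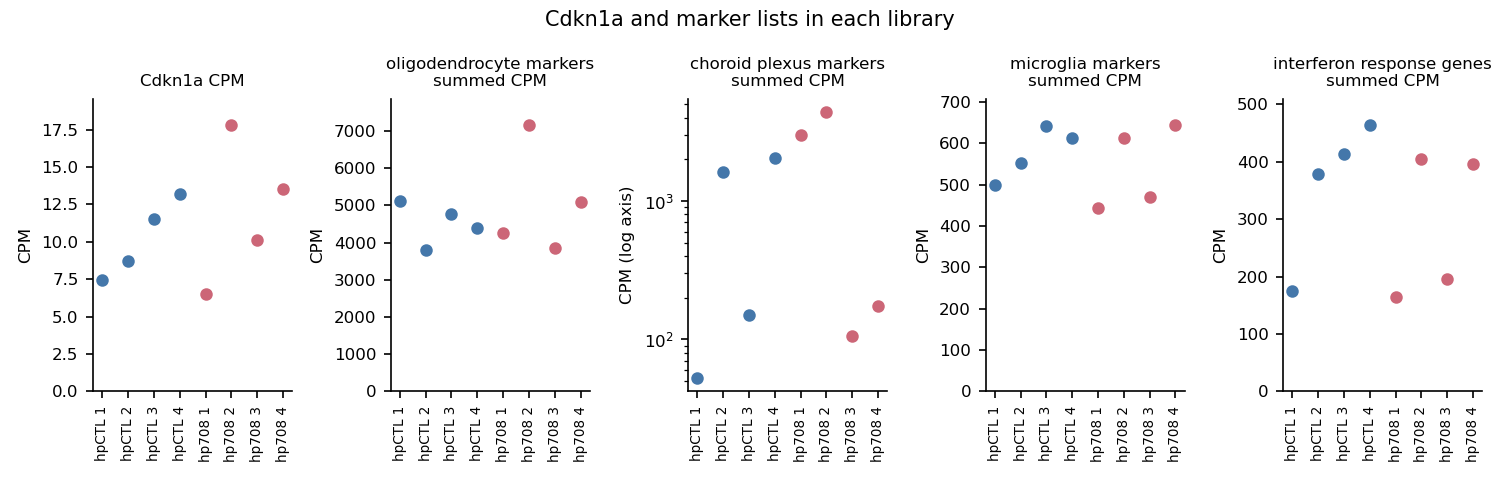
CPM of Cdkn1a and the summed CPM of the oligodendrocyte, choroid plexus (log axis), microglia and interferon response lists, one panel each and one point per mouse, with hpCTL in blue and hp708 in red. The mouse hp708 2 is highest for Cdkn1a (17.8 CPM), the oligodendrocyte markers (7149 CPM) and the choroid plexus markers (4391 CPM), and hpCTL 1 and hp708 1 are the lowest pair for Cdkn1a and the interferon genes.

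The 3 tested genes whose pattern over the 8 mice was most like that of Cdkn1a were Sh3kbp1, Gm36839 and 6430573P05Rik. Their mean absolute difference from Cdkn1a, after each gene was centred and scaled to its SD, was 0.211, 0.223 and 0.238 SD. As the closest of 17252 genes they were bound to be near, and the latter 2 lay at low levels of 0.5 to 1.48 CPM. Sh3kbp1 ran from 28.0 CPM in animal 1602 to 40.7 CPM in hp708 replicate 2.

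The rest of the pathway was read from 7 lists with 102 genes, of which 97 passed the filter. None was called at an FDR below 0.05 (lowest 0.382, edgeR's quasi-likelihood test). At an unadjusted p below 0.05, 1 was higher and 6 were lower in hp708, 7 of 97 beside 7.7% of all tested genes, and the median log2 fold change was -0.02. This count was 1 with no surrogate variables in the fit, and 0 with the replicate block, which was also fitted without them. Dropping single mice gave 2 to 15 in fits that kept 3 surrogate variables, and 0 to 4 in fits that had none. None of the 7 genes kept an unadjusted p below 0.05 without surrogate variables. Without animal 1602, 10 of 98 genes passed, beside 12.2% of all tested genes, and only Bok of these was among the 7. None of the 97 had groups that did not overlap, beside 1.51% of all tested genes.

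The 31 tested p53 target genes outside the 10 include repair, arrest and death genes. None of them had an unadjusted p below 0.05, beside 7.7% of all tested genes. Their median log2 fold change was -0.02 with 13 higher and 18 lower, where 46.8% of all tested genes were higher. Gdf15 was not tested. Among 17 tested p53 regulators, such as the kinases that activate p53, none had an unadjusted p below 0.05, beside the same 7.7%. Their median was 0.04.

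Of 7 tested death-promoting members of the Bcl-2 family, Bok was higher and Bid lower at an unadjusted p below 0.05, beside 2.82% higher and 4.87% lower among all tested genes. Bok, a relative of Bax, had 79.0, 53.1, 50.3 and 41.2 CPM in hpCTL and 48.3, 72.9, 70.7 and 86.1 CPM in hp708. One hpCTL mouse and 3 hp708 mice made up the high values, so the groups overlapped. Its log2 fold change was 0.29 (SE 0.09, p 0.0145, FDR 0.549 by edgeR's quasi-likelihood test). It was 0.31 without surrogate variables (p 0.174) and 0.64 without animal 1602 (p 0.000878, FDR 0.0855, same test), the lowest hp708 mouse for Bok. Bid, which links death receptors to Bax, had 15.96, 16.2, 15.2 and 16.9 CPM in hpCTL and 13.6, 15.7, 13.1 and 13.2 CPM in hp708. As for Bax, hp708 replicates 1, 3 and 4 lay below every hpCTL mouse and replicate 2 lay among them, and the log2 fold change of Bid was -0.23 (SE 0.08, p 0.0241, FDR 0.594). Without surrogate variables it was -0.21 (p 0.0586) and without animal 1602 -0.19 (p 0.0809, all by edgeR's quasi-likelihood test). The remaining 5 of this list, all with estimates below 0, did not pass.

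Of 5 tested survival members of the family, only Bcl2a1b passed an unadjusted p below 0.05, as lower in hp708, beside 4.87% of all tested genes. Its log2 fold change was -0.82 (SE 0.18, p 0.00239, FDR 0.382 by edgeR's quasi-likelihood test). Bcl2a1b is an immune cell gene with near-identical copies in the genome, so its counts are uncertain. The hpCTL mice had 2.07, 3.24, 3.94 and 3.87 CPM and the hp708 mice 1.34, 3.17, 1.66 and 3.43 CPM, with animal 1602 lowest. Without that animal the log2 fold change was -0.27 (p 0.192), and without surrogate variables -0.45 (p 0.208, both by edgeR's quasi-likelihood test). Caspases and the apoptosome, 17 tested genes, gave none with an unadjusted p below 0.05, beside 7.7% of all tested genes, and a median of -0.01.

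Of 8 tested caspase inhibitors, 7 had estimates below 0 (median -0.18), and Naip2, Birc3 and Birc2 passed an unadjusted p below 0.05 as lower in hp708, beside 4.87% of all tested genes. Naip2, an inflammasome sensor, had a log2 fold change of -0.69 (p 0.0236) and Birc3, a target of NF-kappaB signalling, one of -0.60 (p 0.0279). Naip2 has close relatives in the genome and is uncertain. Birc2 had -0.15 (p 0.04996, FDR 0.65 by edgeR's quasi-likelihood test), just inside the threshold. Without animal 1602 these estimates were -0.10 for Naip2 (p 0.456), -0.13 for Birc3 (p 0.496) and -0.11 for Birc2 (p 0.173). Without surrogate variables they were -0.35 (p 0.309), -0.26 (p 0.519) and -0.14 (p 0.075, all by edgeR's quasi-likelihood test). Among 12 death receptors and ligands, only Tnfsf10, the interferon-inducible ligand Trail, passed an unadjusted p below 0.05. Tnfsf10 was lower by the same test (log2 fold change -0.44, p 0.0402, FDR 0.632), beside 4.87% of all tested genes. It was -0.16 without animal 1602 (p 0.236) and -0.24 without surrogate variables (p 0.524, both by edgeR's quasi-likelihood test). The hpCTL mice had 3.71, 8.09, 10.9 and 12.9 CPM and the hp708 mice 5.84, 8.17, 5.03 and 11.0 CPM, so the lowest mouse was in hpCTL and the highest as well. The lowest Tnfsf10 value was in hpCTL replicate 1, which was also lowest among the hpCTL mice for the interferon sum.

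**Figure D5:**
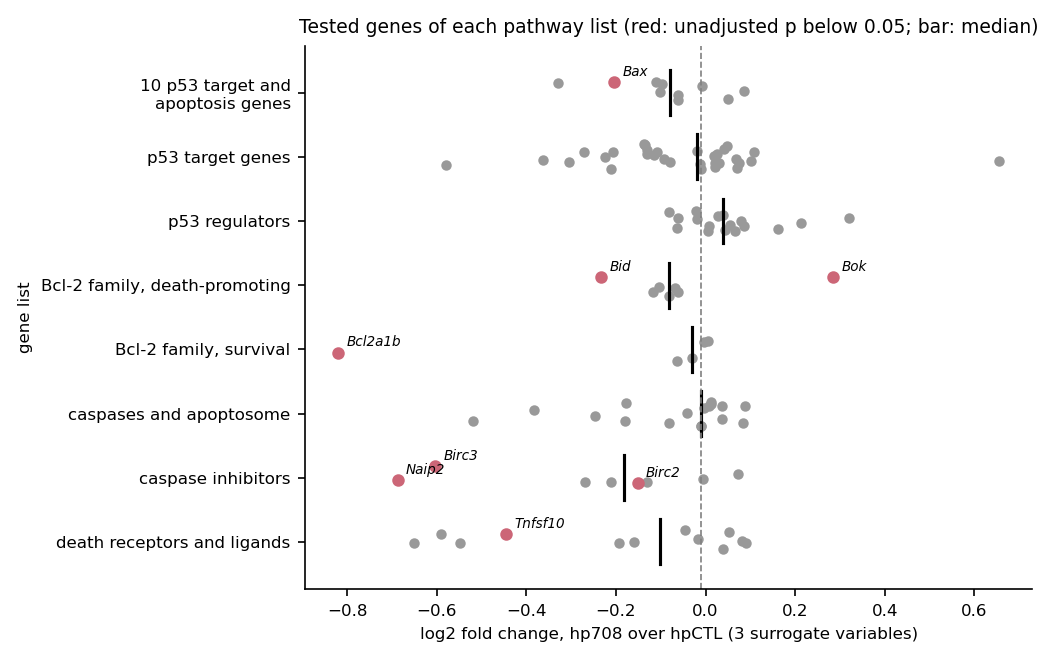
Log2 fold change of hp708 over hpCTL (3 surrogate variables) for the tested genes of the 10 examined genes and of each pathway list, one point per gene, with black bars for list medians and a dashed line for the median of all tested genes. Genes with an unadjusted p below 0.05 are red and named, no gene passed an FDR of 0.05, and the medians of the 7 lists lie between -0.18 (caspase inhibitors) and 0.04 (p53 regulators).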

How the data were processed

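PolyA-RNA of 8 hippocampi was analysed. The authors aligned the reads to GRCm39 (STAR 2.7.8a), assigned them to genes (featureCounts 1.6.4) and deposited the raw counts, not normalized. Strand and multi-mapping settings are not given in the sources used here. The 10 genes and all lists were chosen with earlier results of these data known.

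From these counts, genes were filtered with filterByExpr (17252 of 40659 kept) and compared in edgeR 4.0.16 (R 4.3.3): TMM normalization, 3 surrogate variables (sva 3.50.0), the quasi-likelihood test as in edgeR 3 and Benjamini-Hochberg adjustment over all tested genes. DESeq2 1.42.0 was an alternative. CPM uses TMM-scaled library sizes, and RPKM divides it by exon length of a later GENCODE release of GRCm39, which also named the genes (39641 of 40659). Pathway genes given with values are those with an unadjusted p below 0.05, at most 3 per list. Libraries differed beyond sampling noise (chi-square per degree of freedom 10 to 46.2 within groups), so each counted once. Same-numbered mice did not deviate together (correlations -0.041 to 0.018). The functions were tested on simulated data. Other alternatives changed the surrogate variables, test, normalization, filter, replicate block, group of animal 1602 and libraries. One alternative, surrogate variables from CPM, was chosen after seeing the data.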

Additional observations from a re-analysis of the deposited data

Results flagged for a closer look

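In 5 of 56 groups of 4 mice, 1 mouse lay apart from the other 3 by Dixon's test, for the 10 genes and the summed lists. Chance flags about 1 in 20 groups, or 2.8 of 56. In hp708 replicate 2, Bax (40.3 CPM, others 29.7 to 31.0), Ccng1 (89.9 CPM, others 82.7 to 83.7) and the summed survival members of the Bcl-2 family (367.8 CPM, others 338.3 to 342.8) were high. This is the mouse in which the oligodendrocyte and choroid plexus markers were highest, and their part in these values was not tested. In hpCTL replicate 2, Mdm2 was low (55.6 CPM, others 58.1 to 58.3). In hpCTL replicate 1, the summed caspases and apoptosome genes were high (412.9 CPM, others 379.5 to 383.6).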

How the results depend on the processing

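No gene of the 10 passed an FDR of 0.05 in any of 13 alternatives or with any mouse left out. The number with an unadjusted p below 0.05, 1 with 3 surrogate variables, was 0 with 0, 1 or 2 surrogate variables. It was also 0 with DESeq2 without them, with at least 10 counts in every library and with the replicate block. Dropping single mice gave 1 or 2 in fits that kept 3 surrogate variables, and 0 or 1 in fits that had none. With animal 1602 as hpCTL the gene that passed was Cdkn1a in place of Bax. Without hp708 replicate 4, with 3 surrogate variables, Bax and Pmaip1 passed, beside 8.46% of all tested genes. For the pathway lists (7) it was 1 without surrogate variables, by edgeR or DESeq2, 4 with 1 and 12 with them from CPM. The replicate block, fitted without surrogate variables, gave 0. Dropping single mice gave counts from 2 to 15 in fits that kept 3 surrogate variables, and from 0 to 4 in fits that had none. The number of the 10 whose groups did not overlap was 0, beside 1.51% of all tested genes. With 1 mouse left out it was 0 to 1, with Bax apart without hp708 replicate 2, beside 6.17%. Bax and Sesn1 kept their direction throughout and Ccng1 in all alternatives. Log2 fold changes turned as follows. Without surrogate variables they were 0.23 for Cdkn1a, 0.015 for Phlda3, 0.11 for Eda2r and 0.049 for Pmaip1, and by DESeq2 0.23, 0.020, 0.11 and 0.055, with 0.0053 for Mdm2. With 1 surrogate variable they were 0.13 for Cdkn1a and 0.074 for Eda2r, and with 2 they were 0.075 and 0.021. With at least 10 counts in every library they were 0.26 for Cdkn1a, 0.016 for Mdm2, 0.032 for Trp53, -0.039 for Bbc3, 0.19 for Phlda3, 0.070 for Eda2r and 0.11 for Pmaip1. With the replicate block, without surrogate variables, they were 0.17 for Cdkn1a and 0.14 for Eda2r. With animal 1602 as hpCTL they were 0.49 for Cdkn1a, 0.0085 for Mdm2, 0.011 for Trp53, 0.098 for Phlda3, 0.34 for Eda2r and 0.24 for Pmaip1. With surrogate variables from CPM they were 0.19 for Cdkn1a, 0.0082 for Phlda3 and 0.085 for Eda2r. With 1 mouse left out, with or without surrogate variables, the ranges were -0.29 to -0.087 for Bax, 0.0073 to 0.12 for Sesn1, -0.25 to 0.44 for Cdkn1a, -0.031 to 0.019 for Mdm2, -0.11 to 0.055 for Trp53, -0.10 to 0.011 for Ccng1, -0.074 to 0.17 for Bbc3, -0.21 to 0.25 for Phlda3, -0.21 to 0.35 for Eda2r and -0.54 to 0.28 for Pmaip1. The cause of these changes was not tested. Same-numbered mice share only a number, and the fit with the block also left out the surrogate variables. A result lost there therefore cannot be put down to the block alone, and does not by itself show a weaker effect. With 4 mice per group, the intervals were widest for Eda2r, which had 15 to 38 counts per library.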
